A study of Mus musculus with 12 samples.

Results

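The adult haemoglobin transcripts and the erythroid haem enzyme Alas2 were examined in the cerebral cortex of mice that carry altered forms of Grin1 exon 5. The 5 genes are Hba-a1 and Hba-a2, which encode adult alpha-globin, Hbb-bs and Hbb-bt, which encode adult beta-globin, and Alas2. They were taken by gene symbol from tables of 41388 genes, of which 17441 passed the count filter used for testing, and 5 of the 5 passed it. Poly(A) RNA of 12 adult C57Bl/6 animals gave 12 libraries, 3 in each of 4 groups, and each library carries its own animal number. KI animals are the knock-in with the genotype written Grin1-exon5+/+, in which exon 5 is constitutive, and KI_WT animals are the wild types of that line. KO animals are the knockout with the genotype Grin1-exon5-/-, and KO_WT animals are the wild types of that line. Grin1 encodes GluN1, the obligatory subunit of NMDA-type glutamate receptors, and exon 5 is a cassette exon of its amino-terminal domain. The labels name no Cre driver and give neither the sex of the animals nor whether blood was flushed from the brain before dissection.

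Haemoglobin carries oxygen as a tetramer of alpha and beta chains, each holding a haem group. Its messenger RNA is made by erythroid precursors and persists in reticulocytes, the youngest red cells of the circulation, so that a brain piece holding blood also holds some of it. Low globin expression has also been described in some neurons and glia. Alas2 catalyses the first step of haem synthesis in erythroid cells, where its housekeeping relative Alas1 serves other tissues.

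Libraries held 31790970 to 36514024 counts and 21927 to 22809 detected genes. The Grin1 gene, which the genotypes alter in 1 exon, was at 269 to 363 CPM (the usual scaling of counts to library size, here with TMM factors) over the 12 libraries; a count over the whole gene does not check the genotype. Cortical neuron markers were present in every library, with a summed level of the 8 genes of 3736 to 5557 CPM. Choroid plexus markers ranged from 17.8 to 1955 CPM between libraries. Xist, the RNA that coats the inactive X chromosome of females, reached 570 CPM or more in 5 libraries (KI 2 and KI 3, KI_WT 1, and KO 1 and KO 2). It stayed below 1 CPM in the other 7, which include the 3 of KO_WT.

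The globin genes stand in pairs of near copies, which bears on every count below. In GRCm38 Hba-a1 (ENSMUSG00000069919) lies on the plus strand at chr11:32283511-32284465 and Hba-a2 (ENSMUSG00000069917) at chr11:32296489-32297298, 12023 bases further along. Hbb-bt (ENSMUSG00000073940) lies on the minus strand at chr7:103812524-103813996 and Hbb-bs (ENSMUSG00000052305) at chr7:103826534-103828096, with 12537 bases between them. Each globin gene has 3 exons in its first annotated transcript and overlaps 0 other genes. Alas2 (ENSMUSG00000025270), at chrX:150547375-150570638 on the plus strand with 11 exons, overlaps Apex2 and Mir3620 on the opposite strand.

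The coding sequences of Hba-a1 and Hba-a2, each 429 bases with the stop codon, differ at 1 base (C381T, the Hba-a1 base first, counted from the A of the start codon). Those of Hbb-bs and Hbb-bt, each 444 bases, also differ at 1 base (C417T, the Hbb-bs base first). These stretches of the GENCODE M21 transcripts are shown because they hold the 1 coding base by which a read can tell the copies apart, in capitals, with the 15 bases on either side, 5′ to 3′.
Hba-a1: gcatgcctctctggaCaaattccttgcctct
Hba-a2: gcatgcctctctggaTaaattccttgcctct
Hbb-bs: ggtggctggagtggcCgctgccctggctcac
Hbb-bt: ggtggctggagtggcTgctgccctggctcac
Reads that miss this base and the untranslated ends fit both copies. Of all 50-base windows of the first annotated transcript, 32.5% of those of Hba-a1, 13.1% of those of Hba-a2, 34.2% of those of Hbb-bs and 41.7% of those of Hbb-bt occur in no other gene. With 100-base windows the shares were 43.5%, 25.5%, 37.4% and 45.2%. How the authors' counter treated reads that fit both copies is not given in the sources used here, so the split of counts within a pair is uncertain and the sum over a pair is given beside it. For Alas2, 86.2% of 50-base windows were unique, and the others lay in Apex2 or Mir3620. The strand setting of the counter is not given either; Apex2, a DNA repair nuclease, was at 4.74 to 6.39 CPM, so reads of the overlap could belong to either gene.

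The transcripts vary together between animals, as described further on, and promoters of the members are shown beside that. Any part of promoter sequence in the joint variation was not tested. The stretches come from RefSeq promoters of GRCm38.p6, end before the RefSeq start and overlap no GENCODE exon of the same gene. That of Hbb-bs lies within the GENCODE span of the gene given above. Capitals mark CCAAT, the letters of the CCAAT box, CACCC, the letters of the box bound by erythroid Krüppel-like factor, TATAA, the letters of the TATA box, and TTATC, which is GATAA on the other strand, the core letters of GATA factor sites.
Hba-a2 promoter (chr11:32296342-32296488, plus strand): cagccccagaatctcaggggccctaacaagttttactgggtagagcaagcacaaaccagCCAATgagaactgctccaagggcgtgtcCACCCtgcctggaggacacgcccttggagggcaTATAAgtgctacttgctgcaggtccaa
Hbb-bs promoter (chr7:103827929-103828011, minus strand): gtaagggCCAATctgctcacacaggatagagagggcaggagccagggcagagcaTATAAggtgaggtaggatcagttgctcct
Alas2 promoter (chrX:150547267-150547374, plus strand): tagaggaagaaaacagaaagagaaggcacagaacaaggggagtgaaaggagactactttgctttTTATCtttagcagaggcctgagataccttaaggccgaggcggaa
The sequences upstream of Hba-a1 and Hba-a2 were identical over 247 of 247 aligned bases, with an offset of 3. Those of Hbb-bs and Hbb-bt matched at 127 of 249 aligned bases, or 51.0%. On either strand of the 150 bases upstream of the RefSeq start, CCAAT occurred in the promoters of the 4 globin genes. It did not occur in that of Alas2, against 24.5% of 32851 mouse promoters. TATAA likewise occurred in the 4 globin promoters, against 14.2% of all. CACCC occurred in these 150 bases for all 5 genes (37.4% of all promoters), and GATAA for Alas2 alone (13.3%). The stretches printed are shorter than 150 bases, and only that of Hba-a2 reaches its CACCC. For Hbb-bs and Alas2 the CACCC matches lie outside the stretch printed. Those of Alas2, at -40 to -26 from the RefSeq start, lie within the GENCODE span of the gene. The motifs do not overlap each other in the stretches printed, and a match says only that these letters are present.

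Hbb-bs was the most abundant of the 5 transcripts. RPKM, the authors' values per gene length and library size, are used for levels between genes. Hbb-bs was at 73.9, 74.8 and 54.3 RPKM in KI 1 to KI 3, against 49.8, 55.5 and 75.4 RPKM in KI_WT 1 to KI_WT 3. It was at 53.8, 42.5 and 64.6 RPKM in KO 1 to KO 3, against 52.5, 55.6 and 91.2 RPKM in KO_WT 1 to KO_WT 3. The groups overlapped, with KO_WT 3 the highest library and KO 2 the lowest. In bulk tissue fewer cells of a type and less RNA per cell cannot be told apart.

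Hbb-bt, the minor adult beta gene, was at 18.9, 18.1 and 10.9 RPKM in KI, against 10.6, 12.5 and 17.4 RPKM in KI_WT. It was at 10.6, 7.19 and 15.2 RPKM in KO, against 9.81, 12.6 and 21.01 RPKM in KO_WT. The extremes were again KO_WT 3 and KO 2, and the groups overlapped. Hba-a1 was at 24.4, 19.4 and 12.4 RPKM in KI, against 18.6, 21.7 and 25.5 RPKM in KI_WT. It was at 20.1, 18.1 and 23.4 RPKM in KO, against 21.6, 23.7 and 27.4 RPKM in KO_WT. Here KI 3 was the lowest library and KO_WT 3 the highest.

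Hba-a2, the alpha copy with the fewest counts (40 to 187 per library), was at 5.91, 8.48 and 4.02 RPKM in KI, against 2.08, 3.76 and 6.84 RPKM in KI_WT. It was at 3.37, 1.84 and 3.53 RPKM in KO, against 2.22, 3.13 and 4.91 RPKM in KO_WT. All 3 KI libraries lay above all 3 KO libraries, and KI overlapped both wild-type groups. Alas2 was at 2.06, 1.45 and 1.07 RPKM in KI, against 1.17, 1.27 and 1.90 RPKM in KI_WT. It was at 1.11, 0.828 and 1.57 RPKM in KO, against 1.06, 1.52 and 2.14 RPKM in KO_WT, and the groups overlapped.

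**Figure D1:**
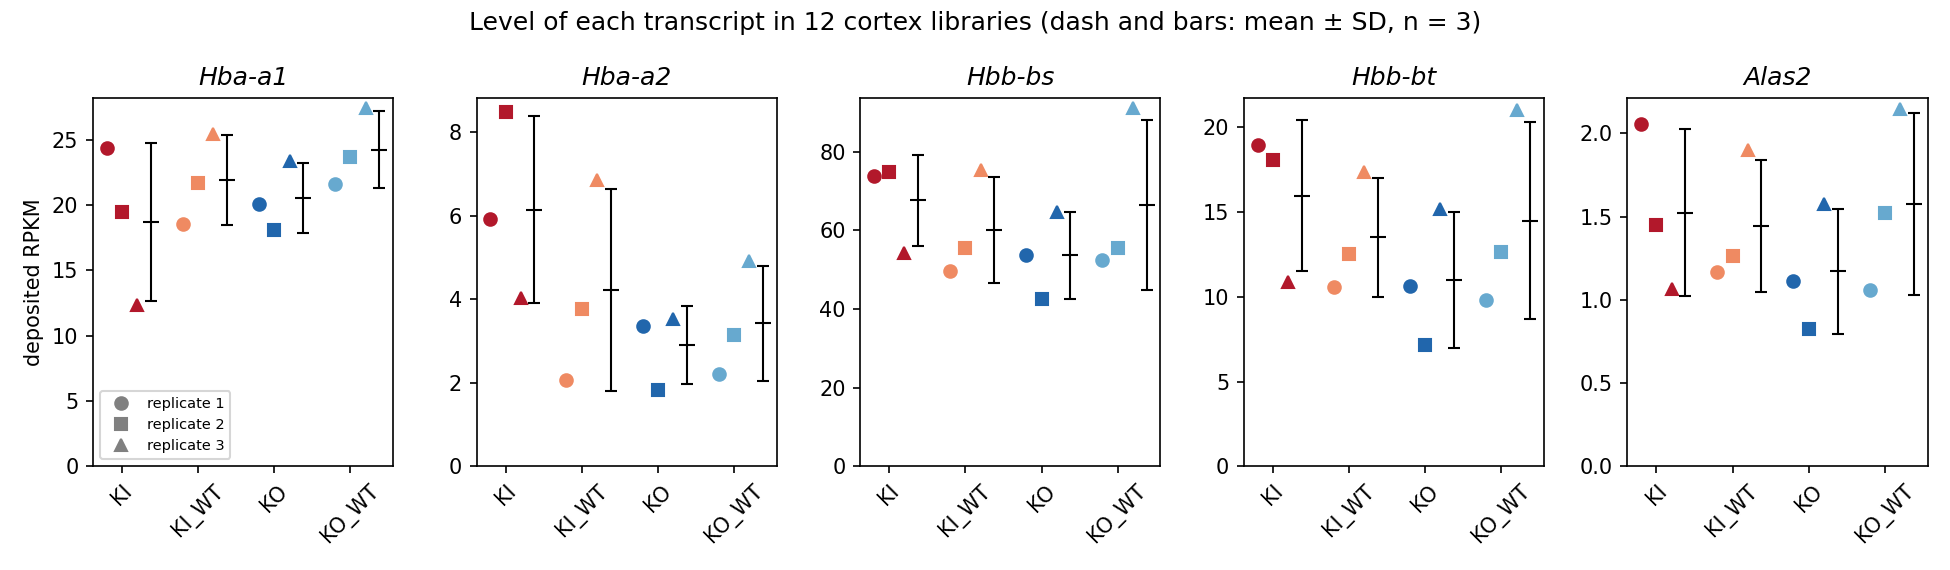
Deposited RPKM (vertical axis, linear from 0, a scale of its own in each panel) of the 5 transcripts in the 12 libraries, by group; points are libraries, and the dash with bars is the mean ± SD of 3. KO_WT 3 is the highest library for Hba-a1, Hbb-bs, Hbb-bt and Alas2, and KI 2, at 8.48 RPKM, for Hba-a2.

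The order of the 5 transcripts was the same in 12 of 12 libraries, Hbb-bs first and then Hba-a1, Hbb-bt, Hba-a2 and Alas2. Over all libraries Hbb-bs averaged 62.0 ± 14.1 RPKM (SD, n = 12) and ranked 784th of the 17441 tested genes. Hba-a1 averaged 21.3 ± 4.02 RPKM, Hbb-bt 13.7 ± 4.29, Hba-a2 4.17 ± 2.03 and Alas2 1.43 ± 0.425 RPKM (SD, n = 12). Together the 4 globin genes took 57.7 to 119 CPM, here without TMM scaling. The group means of Hbb-bs were 67.7 ± 11.6 RPKM in KI and 60.2 ± 13.5 in KI_WT (SD, n = 3). They were 53.6 ± 11.04 RPKM in KO and 66.4 ± 21.5 in KO_WT (SD, n = 3). For each of the 5 genes, groups next to each other in the order of their means differed by less than the SD of either group. Groups further apart in that order could differ by more than either SD. Examples are Hba-a1, at 20.5 ± 2.67 RPKM in KO and 24.2 ± 2.96 in KO_WT, and Hba-a2, at 6.14 ± 2.24 RPKM in KI and 2.91 ± 0.935 in KO (SD, n = 3).

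Variation within the groups was large for genes of this abundance. The SD of log2 CPM within groups was 0.29 for Hba-a1, 0.60 for Hba-a2, 0.32 for Hbb-bs, 0.47 for Hbb-bt and 0.44 for Alas2. It was larger than that of 96.3% of the 2581 tested genes within 0.5 log2 units of Hbb-bs in level, and of 87.0% of the 1293 genes near Alas2; Hba-a1 (90.6%), Hba-a2 (93.6%) and Hbb-bt (95.1%) lay between. The highest library of the 12 exceeded the lowest 2.22-fold in CPM for Hbb-bs, 2.24-fold for Hba-a1, 2.68-fold for Alas2, 3.02-fold for Hbb-bt and 4.46-fold for Hba-a2.

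The members varied together between animals. Within every group 1 library was the lowest for 5 of the 5 genes in CPM, namely KI 3, KI_WT 1, KO 2 and KO_WT 1. KI_WT 3, KO 3 and KO_WT 3 were the highest of their groups for 5 of 5 genes, and KI 1 for 4 of 5, with KI 2 higher for Hba-a2. Across the 12 libraries Pearson's r of log2 CPM between Hbb-bs and Hbb-bt was 0.97 and Spearman's rho 0.92. By a permutation test with 100000 resamples the adjusted p over the 10 pairs was 0.0001 for r and 0.0003 for rho; the raw p of r, 1e-05, is the smallest these resamples can give. Reads shared between the near copies bear on this pair. Alas2 shares no 50-base window with the globin genes, and its r was 0.92 with Hbb-bs (rho 0.91) and 0.95 with Hbb-bt (rho 0.95). Both had a permutation adjusted p of 0.000133 for r.

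Over the 10 pairs r had a median of 0.76 and 7 pairs passed an adjusted p of 0.05 by r, and 9 by rho. The lowest r was 0.22, between Hba-a1 and Hba-a2 (rho 0.29; permutation adjusted p = 0.511 for r). Hba-a1 had r of 0.58 with Hbb-bs and also with Hbb-bt, at an adjusted p of 0.0518 by the permutation test, while the rho of these pairs was 0.73 with Hbb-bs and 0.69 with Hbb-bt. By rho both passed, at a permutation adjusted p of 0.0119 and 0.0218. After group means were subtracted, r over the 10 pairs was 0.68 to 0.97, and 10 of 10 passed. That test rearranged libraries exactly within groups, and the adjusted p was 0.00193 to 0.0170. For Hba-a1 and Hba-a2 the r within groups was 0.68, against 0.22 with the group means left in. Leaving out the 2 libraries farthest from the median of the first gene gave r of 0.19 to 0.96. The animal numbers fall into a lower range of 3 animals (KO 1, KO_WT 2 and KO_WT 3) and a higher range of 9; within the 9 of the higher range r was 0.19 to 0.98, and within the 7 libraries with Xist below 1 CPM it was 0.58 to 0.97.

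**Figure D2:**
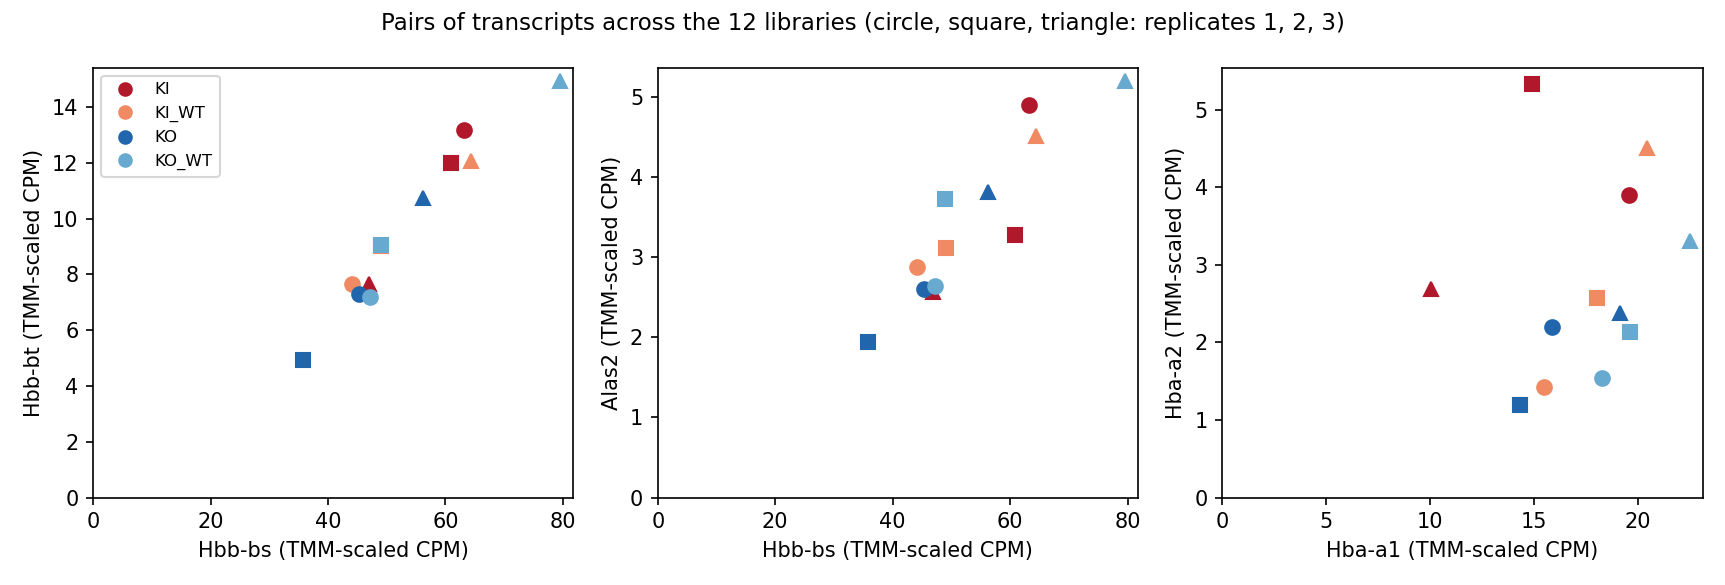
TMM-scaled CPM (linear axes from 0) of Hbb-bt against Hbb-bs, Alas2 against Hbb-bs and Hba-a2 against Hba-a1; each point is 1 of 12 libraries, coloured by group. In the left and middle panels the libraries lie along a line (r of 0.97 and 0.92 on the log2 scale), and in the right panel KI 2 lies apart, at 5.33 CPM of Hba-a2 and 14.9 CPM of Hba-a1 (r of 0.22).

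Shares within the pairs, which do not depend on scaling, showed where Hba-a1 and Hba-a2 parted. They are described without a test. Hba-a1 held 83.4%, 73.6% and 78.9% of alpha-globin counts in KI 1 to KI 3, against 91.6%, 87.6% and 81.9% in KI_WT 1 to KI_WT 3. It held 87.9%, 92.3% and 89.0% in KO 1 to KO 3, against 92.2%, 90.2% and 87.2% in KO_WT 1 to KO_WT 3. The KI libraries lay below all KO and KO_WT libraries and overlapped KI_WT through KI_WT 3. How often shares of other gene pairs would separate groups in this way was not computed. The exact 95% binomial interval, which covers counting error only, was 70.2% to 76.8% for KI 2 and 79.1% to 84.5% for KI_WT 3. Per length, from RPKM, the mean share was 75.2 ± 5.43% in KI and 84.7 ± 5.59% in KI_WT, and 87.8 ± 2.69% in KO and 87.9 ± 2.95% in KO_WT (SD, n = 3). Hbb-bs held 82.7% to 86.0% of beta-globin counts in KI, against 84.2% to 85.2% in KI_WT. It held 84.0% to 87.9% in KO, against 84.2% to 86.8% in KO_WT, so that these groups overlapped.

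**Figure D3:**
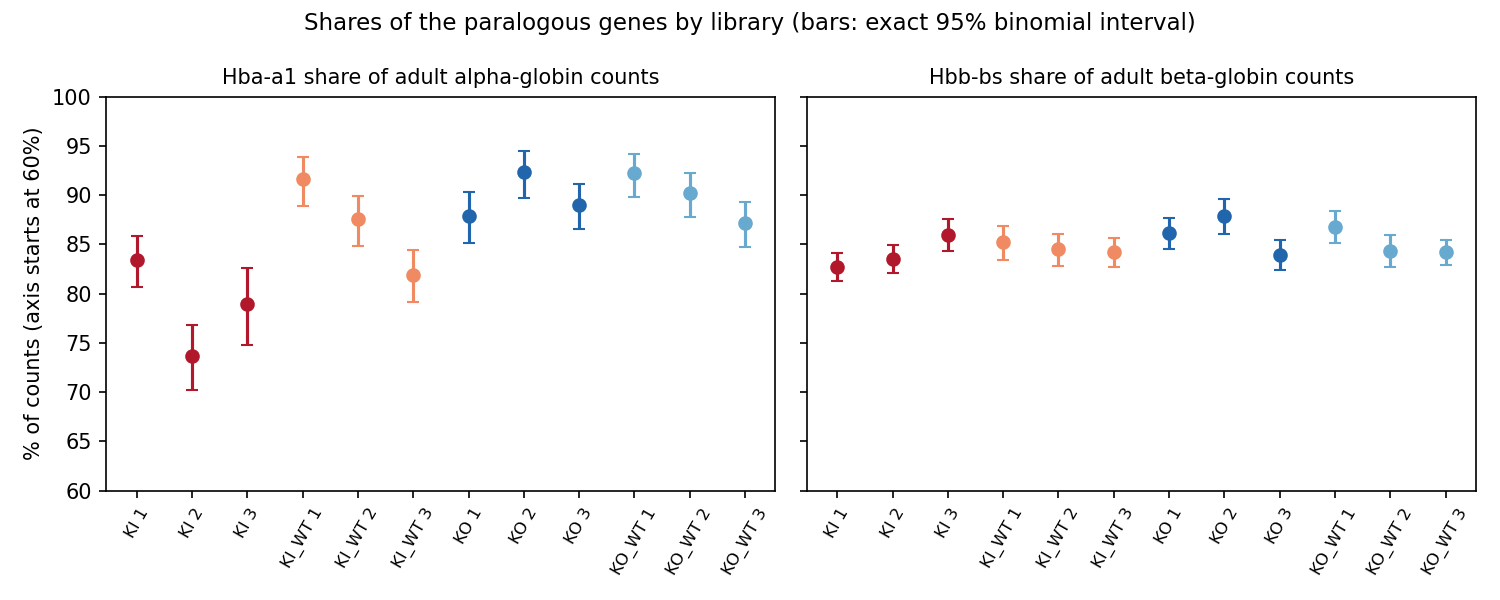
Share of alpha-globin counts held by Hba-a1 (left) and of beta-globin counts held by Hbb-bs (right), in percent on an axis that starts at 60%, for each of the 12 libraries with exact 95% binomial intervals. Hba-a1 is lowest in KI 2 at 73.6% and highest in KO 2 at 92.3%, while Hbb-bs stays within 82.7% to 87.9%.

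The balance of beta to alpha transcripts and of Alas2 to globin is also described per length, without a test. The ratio of summed beta to summed alpha RPKM was 3.06, 3.33 and 3.98 in KI 1 to KI 3, against 2.93, 2.67 and 2.87 in KI_WT 1 to KI_WT 3. For KO 1 to KO 3 the ratio was 2.75, 2.49 and 2.96, against 2.62, 2.54 and 3.47 in KO_WT. KI lay above KI_WT and KO in 3 of 3 libraries and overlapped KO_WT through KO_WT 3. Among single genes 12.2% did not overlap, in either direction, in KI against KI_WT, and 4.23% lay higher in KI against KO. How many ratios of other genes would separate the groups was not computed. Alas2 was at 11.98 to 16.7 per 1000 globin RPKM in KI, against 13.5 to 15.2 in KI_WT. It was at 11.9 to 14.8 in KO, against 12.3 to 16.0 in KO_WT, with all groups overlapping.

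The first comparison asks what constitutive exon 5 does. In KI against KI_WT, 0 of the 5 members passed an adjusted p of 0.05 (quasi-likelihood test of edgeR, Benjamini-Hochberg adjusted over the tested genes), as did 0% of the 17441 tested genes. At an unadjusted p under 0.05 there were likewise 0 members (6.96% of all genes), and DESeq2 called 0 members. The log2 fold change of Hba-a1 was -0.28 (95% interval -0.72 to 0.17), with KI at 14.8 ± 4.78 CPM and KI_WT at 18.0 ± 2.47 (SD, n = 3). That of Hba-a2 was 0.49 (95% interval -0.41 to 1.39), with KI at 3.98 ± 1.33 CPM and KI_WT at 2.83 ± 1.56. Single wild-type libraries moved this value, to 0.17 without KI_WT 1 and to 0.998 without KI_WT 3. Hbb-bs was at 0.12 (-0.37 to 0.60), Hbb-bt at 0.19 (-0.51 to 0.89) and Alas2 at 0.03 (-0.67 to 0.73). Adjusted p-values were 0.806 to 0.987 by edgeR, and the libraries overlapped for 5 of 5 genes (12.2% of all genes did not overlap). With the counts of each pair summed, the log2 fold change was -0.15 for alpha and 0.13 for beta, a fit with no p.

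The second comparison asks what loss of exon 5 does. All 5 members had a lower mean in KO than in KO_WT, and 0 passed, against 1 of 17441 genes or 0.00573%. The log2 fold change was -0.36 for Hbb-bs (95% interval -0.84 to 0.13), with KO at 45.8 ± 10.2 CPM and KO_WT at 58.6 ± 18.2 (SD, n = 3). It was -0.44 for Hbb-bt (-1.15 to 0.27), with KO at 7.66 ± 2.92 CPM and KO_WT at 10.4 ± 4.04. For Alas2 it was -0.47 (-1.17 to 0.23), with KO at 2.79 ± 0.947 CPM and KO_WT at 3.86 ± 1.28. Hba-a1 was at -0.29 (-0.73 to 0.15) and Hba-a2 at -0.28 (-1.21 to 0.66). Adjusted p-values were 0.705 to 0.884 by edgeR, 0 members had an unadjusted p under 0.05 (7.22% of all genes), and DESeq2 called 0. Of all tested genes 48% had a log2 fold change below 0, and the 5 members vary together between libraries, so that they are not 5 independent observations. Libraries overlapped for 5 of 5 genes (12.4% of all genes did not overlap).

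Other measured differences moved with the lower globin means in KO. KO_WT 3, the highest library of all, carried much of the difference. Without it the median log2 fold change of the members was -0.08, against -0.36 with it, and 4 of 5 were lower. Among the 9 animals of the higher number range the median was 0.13 and 2 of 5 members were lower, with 1 library left in KO_WT. In the lower number range alone (KO 1 against KO_WT 2 and KO_WT 3), a split added after the data were seen, the median was -0.50 and 5 of 5 members were lower, with 0 called by edgeR. Xist was at 570 CPM in KO 1 and 677 CPM in KO 2 and below 1 CPM in the 3 KO_WT libraries. With the Xist level as a term, an alternative chosen after the data were seen, the median was -0.08 and the log2 fold changes ran from -0.13 (Hbb-bs) to 0.09 (Hba-a2). Xist level and genotype are partly confounded here, as are number range and genotype, and their parts in the result cannot be told apart.

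Set directly against each other, KI had a higher mean of Hba-a2 than KO without a call. Hba-a2 was at 3.98 ± 1.33 CPM in KI and 1.92 ± 0.634 in KO (SD, n = 3), a log2 fold change of 1.04 (95% interval 0.13 to 1.96). Its edgeR p was 0.0287, and the adjusted p was 0.905. The 3 KI libraries lay above the 3 KO libraries, which holds in this direction for 4.23% of all genes; the p of an exact two-sided permutation test was 0.1, and 3 against 3 libraries can give no smaller one. Of the 5 members 0 passed (0.00573% of all genes did), 1 had an unadjusted p under 0.05 (5.43% of all genes), and DESeq2 called 0. Hbb-bt was at 0.51 (-0.19 to 1.22), Alas2 at 0.36 (-0.34 to 1.06), Hbb-bs at 0.32 (-0.17 to 0.80) and Hba-a1 at -0.15 (-0.59 to 0.29). For the alpha pair summed, the log2 fold change was 0.03 (-0.43 to 0.50), with KI at 18.8 ± 5.53 CPM and KO at 18.4 ± 2.99 (SD, n = 3). Of the 2 copies, the mean of Hba-a2 was higher and that of Hba-a1 lower in KI than in KO.

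Between the wild types of the 2 lines, 0 of 5 members passed in KI_WT against KO_WT, and 0% of all genes did. The log2 fold changes were -0.16 for Hba-a1, 0.28 for Hba-a2, -0.16 for Hbb-bs, -0.12 for Hbb-bt and -0.14 for Alas2. Each adjusted p was 0.9998 by edgeR, 0 members had an unadjusted p under 0.05 (1.96% of all genes), and DESeq2 called 0. The difference between the KI and the KO effect was positive for 5 of 5 members, at 0.01 for Hba-a1, 0.47 for Hbb-bs, 0.50 for Alas2, 0.63 for Hbb-bt and 0.76 for Hba-a2. Of these 0 passed (0.00573% of all genes did), with edgeR adjusted p-values of 0.918 to 0.995; 0 had an unadjusted p under 0.05 (5.26% of all genes) and DESeq2 called 0. Of all genes 49% had a positive difference. Among the 9 animals of the higher number range the median over the members was 0.059, against 0.50 in all 12, and 2 of 5 were negative (Hba-a1 and Alas2). The widest interval, that of Hba-a2, ran from -0.53 to 2.06, and the narrowest, that of Hba-a1, from -0.61 to 0.64, and every interval of the 5 holds both 0 and a 1.5-fold higher effect in KI.

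**Figure D4:**
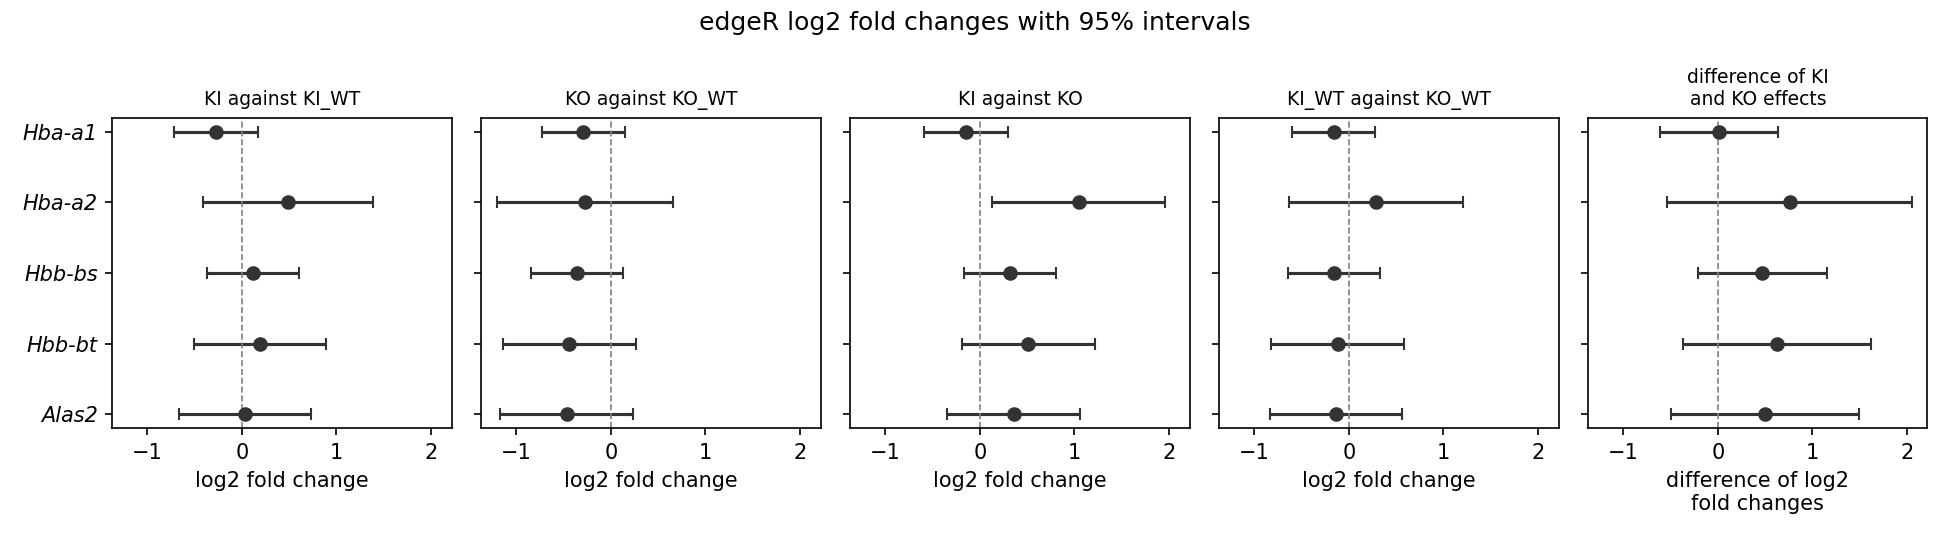
edgeR log2 fold changes (horizontal axis; points) with 95% intervals (bars) of the 5 genes in 4 comparisons, and the difference between the KI and KO effects at the right; the dashed line is 0. In KO against KO_WT the 5 points lie left of 0 with every interval crossing it, and Hba-a2 in KI against KO is the 1 interval that does not cross 0.

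Other genes of the globin family were mostly silent. The embryonic genes Hba-x, Hbb-bh1 and Hbb-bh2 and the pseudogene-like Hbb-bh0 had 0 counts in 12 libraries, which allows up to 0.00739 CPM over all libraries. Embryonic Hbb-y had 18 counts in all, the theta-globin genes Hbq1a and Hbq1b 114 and 52, and Mb, the myoglobin of muscle, 81. Of 10 other globin genes 3 were tested, with 0 called in any comparison. Ngb, the neuronal globin, was at 9.62 ± 5.32 CPM in KI animals and 4.74 ± 1.72 in KI_WT animals, and at 6.71 ± 4.75 in KO and 4.70 ± 0.833 in KO_WT (SD, n = 3). Cygb, the globin of fibroblast-like cells and some neurons, was at 36.0 ± 4.35 CPM in KO animals and 33.2 ± 1.32 in KO_WT animals (SD, n = 3). Hbq1a had a log2 fold change of -0.19 in KI (95% interval -1.18 to 0.79).

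No gene of haem synthesis outside Alas2 passed in any comparison, with 9 of 9 tested. In KI 7 of 9 had a higher mean than in KI_WT (median log2 fold change 0.10, against -0.01 over all genes), and in KO 6 of 9 (median 0.06, against 0.01 over all genes). Urod, which decarboxylates uroporphyrinogen, was at 34.1 ± 0.822 CPM in KI animals and 30.1 ± 0.456 in KI_WT animals (SD, n = 3; edgeR adjusted p = 0.705). In KO, Fech, which inserts iron into the ring, was at -0.10 and Cpox, an oxidase of the late pathway, at -0.17. Alas1 averaged 9.56 RPKM over the 12 libraries, against 1.43 RPKM for Alas2.

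Several genes that define red cell precursors were near the detection limit. Slc4a1, the band 3 anion exchanger, had 74 counts over 12 libraries, Rhag 8 and Hemgn 6. Of the erythroid transcription factors Klf1 had 37 counts, Nfe2 12, Gata1 2 and Gfi1b 0. Bnip3l, a mitophagy receptor used in both reticulocytes and brain, averaged 47.4 RPKM. Of 29 genes of the erythroid membrane and reticulocyte list 28 were in the table and 15 were tested, and of 8 transcription factors 4 were tested; 0 were called in any comparison. In KI 9 of the 15 had a higher mean (median 0.01) and in KO 5 of the 15 (median -0.05). Epb41, protein 4.1 of the membrane skeleton, was at 22.6 ± 1.42 CPM in KI animals and 26.2 ± 2.51 in KI_WT animals, and at 23.1 ± 2.35 in KO and 27.6 ± 0.930 in KO_WT (SD, n = 3). Tfrc, the transferrin receptor, had a log2 fold change of -0.26 in KI. Of the transcription factors 1 of 4 was higher in KI (median -0.04) and 2 of 4 in KO (median -0.01), with Ldb1 at -0.06 and Zfpm1 at -0.16 in KI and Ldb1 at 0.04 and Lmo2 at -0.06 in KO.

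Clearance of haem and haemoglobin and the handling of iron gave 0 calls among 12 tested genes. In KI 11 of 12 had a higher mean than in KI_WT (median log2 fold change 0.04), and in KO 6 of 12 (median 0.01). Hmox1, the inducible haem oxygenase, was at 5.90 ± 1.94 CPM in KO animals and 4.19 ± 0.179 in KO_WT animals (SD, n = 3), a log2 fold change of 0.49 (edgeR adjusted p = 0.678). Hp, haptoglobin, which binds free haemoglobin, was at 0.333 ± 0.137 CPM in KI animals and 0.1003 ± 0.105 in KI_WT animals, at a log2 fold change of 1.67 (edgeR adjusted p = 0.723). Blvra, biliverdin reductase, was at 0.10 in KI and 0.14 in KO. In the list of neighbours of the alpha-globin cluster, whose mouse positions, that of Polr3k included, were not checked, 5 of 6 genes were tested. Of these, 3 were higher in KI (median 0.02) and 4 higher in KO (median 0.05), with 0 called. Nprl3, which holds the distal enhancers of alpha-globin in its introns, was at 0.05 and Polr3k at -0.06 in KI, and Rhbdf1 was at 0.37 and Snrnp25 at 0.08 in KO.

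Transcripts of other blood and vessel cells were set beside Hbb-bs across the 12 libraries, 8 relations in all. The neutrophil list was the 1 that passed, with r of 0.78 (permutation p = 0.00247, adjusted p = 0.0198) and rho of 0.79 (permutation p = 0.00342, adjusted p = 0.0274). It rests on the 4 tested genes S100a8, S100a9, Ngp and Lcn2 of 10; Ly6g had 4 counts in all, Elane 11 and Mpo 22. Summed over the 4 genes, KI 1 to KI 3 held 27.2, 1.26 and 1.17 CPM, against 0.776, 0.642 and 4.87 CPM in KI_WT 1 to KI_WT 3. In KO 1 to KO 3 the sum was 0.767, 0.269 and 2.10 CPM, against 0.567, 14.1 and 20.5 CPM in KO_WT 1 to KO_WT 3. Lcn2 alone made up most of the mean sum in KI (7.70 of 9.87 CPM) and KO_WT (8.66 of 11.7 CPM). Its part was smaller in KI_WT (0.612 of 2.10 CPM) and KO (0.288 of 1.05 CPM). KI 1, KI_WT 3, KO 3 and KO_WT 3, highest of their groups for the list, are also the highest of their groups for Hbb-bs in CPM. After subtraction of group means r was 0.72 (exact permutation p = 0.0355), and its adjusted p of 0.248 over the 7 relations tested in this way did not pass. Without the 2 libraries farthest from the median r was 0.63, within the 9 animals of the higher number range 0.84 and within the 7 libraries with little Xist 0.68.

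No other list passed. The r was 0.53 for mural cells, 0.36 for microglia and border macrophages, 0.35 for endothelium, 0.33 for platelets and megakaryocytes, 0.32 for lymphocytes and 0.11 for meningeal fibroblasts, with rho of 0.45, 0.25, 0.37, 0.42, 0.04 and 0.25. The smallest permutation adjusted p among them was 0.290. For lymphocytes r turned to -0.61 without the 2 farthest libraries. Choroid plexus markers fell into separate clusters, and within the 9 libraries that hold them r was 0.05.

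**Figure D5:**
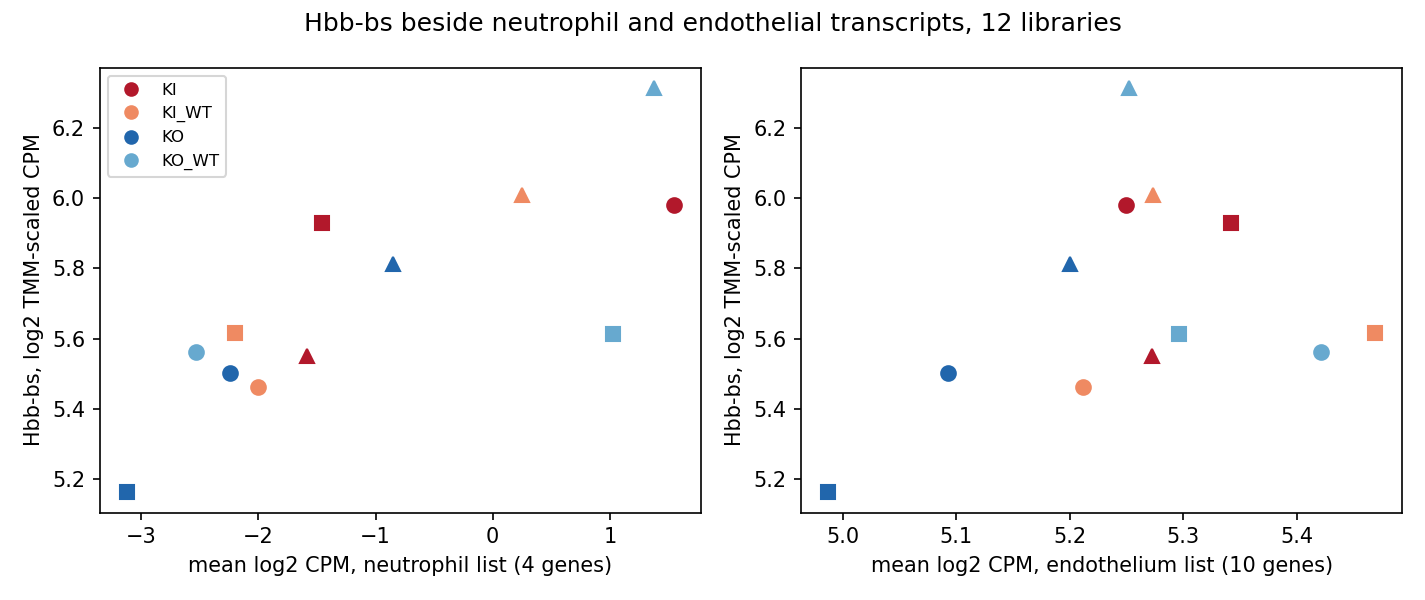
Hbb-bs in log2 TMM-scaled CPM (vertical axes) against the mean log2 CPM of 4 neutrophil genes (left) and of 10 endothelial genes (right); each point is 1 of 12 libraries, coloured by group, and circle, square and triangle mark replicates 1 to 3. The libraries climb from lower left to upper right in the left panel (r of 0.78) and show no passing relation in the right panel (r of 0.35).

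Between the groups these lists gave 0 calls in any comparison. The 4 neutrophil genes had lower means in KO than in KO_WT (median log2 fold change -2.05, summed level 0.269 to 2.10 CPM in KO and 0.567 to 20.5 in KO_WT) and higher means in KI than in KI_WT (median 0.71). In KI the summed level was 1.17 to 27.2 CPM, against 0.642 to 4.87 in KI_WT. Lcn2, lipocalin 2, was at 7.70 ± 12.96 CPM in KI animals and 0.612 ± 0.815 in KI_WT animals (SD, n = 3), and its log2 fold change of 3.63 turned to -1.49 without KI 1. In KO it was at 0.288 ± 0.120 CPM, against 8.66 ± 7.79 for KO_WT animals (SD, n = 3). The log2 fold change there was -4.88 (95% interval -8.81 to -0.94), with an edgeR p of 0.0192 and an adjusted p of 0.678. S100a8, a calcium-binding protein of neutrophils, was at 1.10 in KI and -1.999 in KO. Endothelial genes were lower in KO for 10 of 10 members (median -0.18) at 350 to 446 CPM in sum, against 462 to 508 in KO_WT; Flt1, a VEGF receptor, was at -0.41 and the efflux pump Abcb1a at -0.40. Mural cell genes were lower in KO for 8 of 8 (median -0.30) at 224 to 292 CPM in sum, against 290 to 335 in KO_WT. Smooth muscle myosin Myh11 was at -0.66 and the channel subunit Abcc9 at -0.51. KO 2 was the lowest library for both lists, at 350 CPM for endothelium and 224 CPM for mural cells. KO 1 and KO 3 held 286 and 292 CPM for mural cells, near KO_WT 2 and KO_WT 3 (296 and 290). The genes of a list need not be independent observations. In KI 5 of 10 endothelial genes were higher (median 0.01), with the transporter Slco1a4 at -0.30 and Abcb1a at -0.17, and 5 of 8 mural genes (median 0.01), with smooth muscle actin Acta2 at 0.42 and Myh11 at 0.23. The part of vessel content and of neutrophil transcripts in the globin values was not tested.

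Microglia and border macrophage genes were lower for 7 of 8 in KO (median -0.26), at 200.5 to 233 CPM in sum, against 249 to 294 in KO_WT, and higher for 7 of 8 in KI (median 0.18). Csf1r, a receptor of these cells, was at -0.32 and Mrc1, the mannose receptor, at -0.54 in KO; Tmem119 was at 0.19 and P2ry12 at -0.38 in KI. Platelet genes were higher for 3 of 5 in KO (median 0.11) and 4 of 5 in KI (median 0.09), with Itga2b, integrin alpha IIb, at 0.57 and Gp9 at -0.37 in KO, and the platelet chemokines Pf4 (also in the macrophage list) at 0.30 and Ppbp at 0.48 in KI. Lymphocyte genes were lower for 4 of 4 in KO (median -0.12), with Cd4 at -0.47 and Cd79a at -0.22, and for 2 of 4 in KI (median 0.06), with Cd79b at 0.89 and Ighm at -0.37. Choroid plexus genes were higher for 9 of 9 in KO (median 1.15) and in KI (median 0.46). The factor Otx2 was at 1.15 and the channel-like Clic6 at 0.74 in KO, and Clic6 was at 0.58 and Kl at 0.55 in KI. Wild types KI_WT 3 (17.8 CPM summed), KO_WT 1 (22.0 CPM) and KO_WT 3 (27.8 CPM) almost lacked these markers. KO_WT 2, with 908 CPM, fell inside the KO range of 571 to 1093 CPM. KI_WT 1 (1684 CPM) and KI_WT 2 (1224 CPM) fell inside the KI range of 776 to 1955 CPM. The part of genotype in these medians, apart from which pieces held the tissue, was not tested. Meningeal fibroblast genes were higher for 8 of 9 in KO (median 0.23), with the proteoglycans Dcn at 0.54 and Lum at 0.40, and for 7 of 9 in KI (median 0.13), with the collagens Col1a1 at 0.49 and Col1a2 at 0.43. Neuron genes were lower for 6 of 8 in KO (median -0.11), with Camk2a at -0.46 and Tbr1 at -0.24, and for 7 of 8 in KI (median -0.11), with Rbfox3 at -0.13.

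The genes whose pattern was most like that of the members were ranked by Pearson's r, over 12 libraries, with the mean log2 CPM of the 5, and are described without a test. The first was Ngp, a granule protein of neutrophil precursors, with r of 0.90 at 0 to 0.849 CPM. Next came the histone gene Hist1h4k (0.87), Akap12, a kinase anchor (0.86), Phactr2 (0.86), Sh3bp4 (0.84) and S100a9, a partner of S100a8 (0.82). Tmem163, Etnppl, Fam65c and Adcyap1r1, a receptor of the neuropeptide PACAP, followed at 0.81 each. The median r of all other tested genes was 0.00, and 11 genes reached 0.8. The members themselves had r of 0.63 (Hba-a1), 0.86 (Hba-a2), 0.95 (Alas2), 0.97 (Hbb-bs) and 0.99 (Hbb-bt) with a mean that includes each of them.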

How the data were processed

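Cortical poly(A) RNA of 12 mice was sequenced. The submitters' processing notes name the tools bcl2fastq 2.17, STAR 2.5.0c and Cufflinks 2.2.1 and the build GRCm38, with no role for any of them. The read counter, annotation and strand setting are not given in the sources used here. The deposited tables hold raw counts and the authors' RPKM for 41388 genes, 1 column per library, with 0 columns unassigned. Count divided by RPKM gave a gene length of 863 bases for Hbb-bs, where GENCODE M21 exons span 768; for the other members the lengths were equal.

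Counts were fitted with edgeR 4.0.16 in R 4.3.3 (filterByExpr by group, 17441 genes; TMM; quasi-likelihood test with group means over 12 libraries, 8 residual degrees of freedom; Benjamini-Hochberg adjustment within each of 5 comparisons, threshold 0.05), a fit checked on simulated data. Replicates are separate animals, numbered in record order. Counts of 2 replicates differed with a variance 13.6 to 73.5 times that of sampling. Log2 CPM uses a prior count of 2. Correlations used Python 3.11.15 with numpy 2.4.6. Lists are described by counts and medians. The members and lists were chosen with earlier results of these data known. Named genes are the members, from each list the 2 with the smallest p in KI against KI_WT and in KO against KO_WT, and the 10 most alike; list genes given only by counts, and Apex2, Grin1 and Xist, were added beside them. Some list genes that this rule names are not reported here. Ahsp found no match in the table.

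As alternatives the tests were rerun without the count filter or with a minimum of 1 CPM in 3 libraries, with RLE factors, with DESeq2 1.42.0, with limma 3.58.1 (voom with quality weights; log2 RPKM with a pseudocount of 0.1 or 1, for genes above 0.5 in 3 libraries), with the compared groups alone, with a term for the animal number range, with the 9 animals of its higher part alone, and with each library left out. Members left out of library sizes, an Xist term, summed pairs and the lower number range alone (KO against KO_WT) were added after the data were seen.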

Additional observations from a re-analysis of the deposited data

How the results depend on the processing

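The count of members called was 0 in each of the 5 comparisons and under each alternative that was run, with 18 alternatives per comparison, 19 for KO against KO_WT and 23 for the difference; the smallest adjusted p of any member was 0.234 (Hba-a1 in KO against KO_WT in the lower number range alone). DESeq2 called 4 genes of all in KI against KI_WT, 8 in KO against KO_WT, 14 in KI against KO, 1 in KI_WT against KO_WT and 5 for the difference, where edgeR called 0, 1, 1, 0 and 1; without KO 3 edgeR called 6 in KO against KO_WT. No paired analysis was possible because the animal numbers are shared by no 2 groups and replicate numbers only follow the order of the records. The lower number range alone (KO 1 against KO_WT 2 and KO_WT 3, chosen after the data were seen) gave a median of -0.50 over the members with 5 of 5 lower, and edgeR called 6 genes of all there.

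Directions of single log2 fold changes, none of them called, turned as follows; the causes were not tested. With the 9 animals of the higher number range alone, KO against KO_WT gave 0.22 for Hba-a2, 0.14 for Hbb-bt, 0.13 for Alas2, -0.063 for Ldb1, -0.055 for Snrnp25, 2.37 for S100a8 and -0.49 for Ngb. In the lower range alone it gave 0.36 for Lmo2, 0.80 for Cd4 and 0.35 for Cd79a. In the higher range alone KI_WT against KO_WT gave 0.16 for Hbb-bs, 0.43 for Hbb-bt and 0.41 for Alas2. The difference of effects in the higher range gave -0.16 for Hba-a1 and -0.10 for Alas2. With a term for the number range KI_WT against KO_WT gave 0.12 for Hbb-bt and 0.086 for Alas2, and the difference gave -0.011 for Hba-a1. With the Xist term KO against KO_WT gave 0.089 for Hba-a2 and 0.13 for Cd79a, KI_WT against KO_WT gave 0.075 for Hbb-bt and 0.078 for Alas2, and the difference gave -0.15 for Hba-a1. On RPKM the difference for Hba-a1 was -0.027 with a pseudocount of 0.1 and -0.023 with 1, and voom gave -0.23 for Hba-a2 in KI_WT against KO_WT. The r of Hbb-bs with lymphocyte genes was -0.61 without the 2 farthest libraries.

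With single libraries left out the values ran over 0. In KI against KI_WT they were -0.25 to 0.26 for Alas2, -1.49 to 5.73 for Lcn2, -0.70 to 0.21 for Hbq1a and -0.17 to 0.86 for Ppbp. In KO against KO_WT they were -0.50 to 0.071 for Hba-a2, -0.00042 to 0.087 for Ldb1, -0.27 to 0.066 for Lmo2, -0.55 to 0.12 for Cd79a and -0.23 to 0.83 for Ngb. In KI against KO they were -0.39 to 0.077 for Hba-a1. In KI_WT against KO_WT they were -0.22 to 0.63 for Hba-a2, -0.33 to 0.14 for Hbb-bs, -0.32 to 0.25 for Hbb-bt and -0.36 to 0.15 for Alas2, and for the difference -0.23 to 0.24 for Hba-a1. Without turning, Hba-a2 ran from 0.17 to 0.998 in KI against KI_WT and from 0.42 to 1.27 for the difference. The lone sample that a number range leaves in a group is taken to vary like the other groups. Depth limits Hba-a2 and Alas2 most, with 40 to 187 and 65 to 173 counts per library.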
